A study of Mus musculus with 6 samples.

Results

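The genes described here encode the apolipoproteins of very-low-density and high-density lipoproteins and the transfer protein that loads lipid onto them. They were taken by gene name from the deposited count table, where 10 names (Apoa1, Apoa2, Apoa4, Apoa5, Apob, Apoc1, Apoc2, Apoc3, Apoe and Mttp) matched 10 of 54532 rows. All 10 passed the filter on low counts and are among the 13693 genes tested. They were measured by RNA sequencing of whole liver from male littermate mice that began a high-fat diet at 8 weeks of age and ate it for 8 weeks. Of the 6 libraries, 3 are labelled Trem2 KO (Trem2-deficient, Trem2-/-; replicates 4, 5 and 6) and 3 are labelled WT or control (replicates 1, 2 and 3). The label of WT replicate 1 carries a suffix, _N, that is not explained. Trem2 is a lipid-sensing receptor of macrophages. The labels state neither which of its exons were removed nor that each library came from a separate mouse, so p-values measure the spread between these samples, which may be technical.

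The liver exports triglyceride in very-low-density lipoprotein (VLDL). A single molecule of apolipoprotein B forms the frame of each particle, and the microsomal triglyceride transfer protein, whose large subunit is encoded by Mttp, moves lipid onto it in the endoplasmic reticulum. The smaller apolipoproteins of the A, C and E families are exchangeable: they move between particles in plasma and set how fast lipases and receptors clear them. In the mouse their genes lie mostly in clusters, and hepatocytes make nearly all of them, with the intestine as the other main source of apolipoprotein B and apolipoprotein A-IV and macrophages as another source of apolipoprotein E.

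Libraries held 11591021 to 20399361 counts. Hepatocyte markers were abundant throughout. Of 10 listed marker names, 9 matched a gene of the count table and Tf did not. The summed level of the 9 was 66685 to 83455 CPM in KO-labelled and 68684 to 115611 CPM in WT-labelled libraries. CPM is a library's counts relative to its total, after TMM scaling in edgeR. Of these 9, 8 were fitted lower, 2 of them at an unadjusted edgeR p under 0.05 (Cps1 and Serpina1a, log2 −1.70 and −0.64), and their part in the lists of liver genes given later was not tested. Trem2 counts were 9, 6 and 5 in KO-labelled replicates 4, 5 and 6, and 7, 26 and 26 in WT-labelled replicates 1, 2 and 3. WT-labelled replicate 1 lay inside the KO-labelled range, so the targeted gene does not check that label, and every direction given is between libraries as labelled. The mitochondrial share of counts (genes of the mitochondrial genome) was 28.0%, 9.08% and 19.8% in KO-labelled replicates 4, 5 and 6, against 8.16%, 12.7% and 10.2% in WT-labelled replicates 1, 2 and 3. Of 5 listed adipocyte markers, Adipoq, Plin1, Lep and Retn had 125, 122, 64 and 32 counts in KO-labelled replicate 5 and at most 5 counts in any other library. The fifth, Cfd, did not single it out, with 792, 887 and 576 counts in KO-labelled and 84, 932 and 402 counts in WT-labelled libraries. With Cfd, the summed level of the list was 37.7 to 70.2 CPM in KO-labelled and 5.34 to 59.7 CPM in WT-labelled libraries. The part of that library and of the mitochondrial share in the results was not tested.

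Apoa4 was the member that stood out. With the quasi-likelihood test of edgeR over all genes, 0 of the 10 members had an adjusted p under 0.05, beside 0.0146% of the tested genes called higher and 0% called lower. At an unadjusted p under 0.05 in that test stood 1 member, Apoa4 (higher), or 10% of them, and 8.58% of all tested genes (5.37% higher and 3.21% lower). DESeq2 called 1 member (Apoa4 higher; 1.08% of its genes called in either direction and 0.689% called higher), limma-voom 0, and limma-voom with sample quality weights 3 (Apoa4 and Apoc3 higher, Apoa5 lower; 15.1% of all genes called higher and 14.6% lower). The quality weights ranged from 0.303 for KO-labelled replicate 5 to 5.53 for WT-labelled replicate 3, so that test leaned on few libraries. KO-labelled and WT-labelled values did not overlap for 2 members, Apoa4 (higher) and Apoa1 (lower). That is 20% of the members beside 13.9% of all tested genes (8.12% higher and 5.73% lower). The fitted log2 fold changes were above 0 for 4 members and below 0 for 6, with a median of −0.07, beside −0.01 for all tested genes. As a count, the members thus stood near the background.

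**Figure D1:**
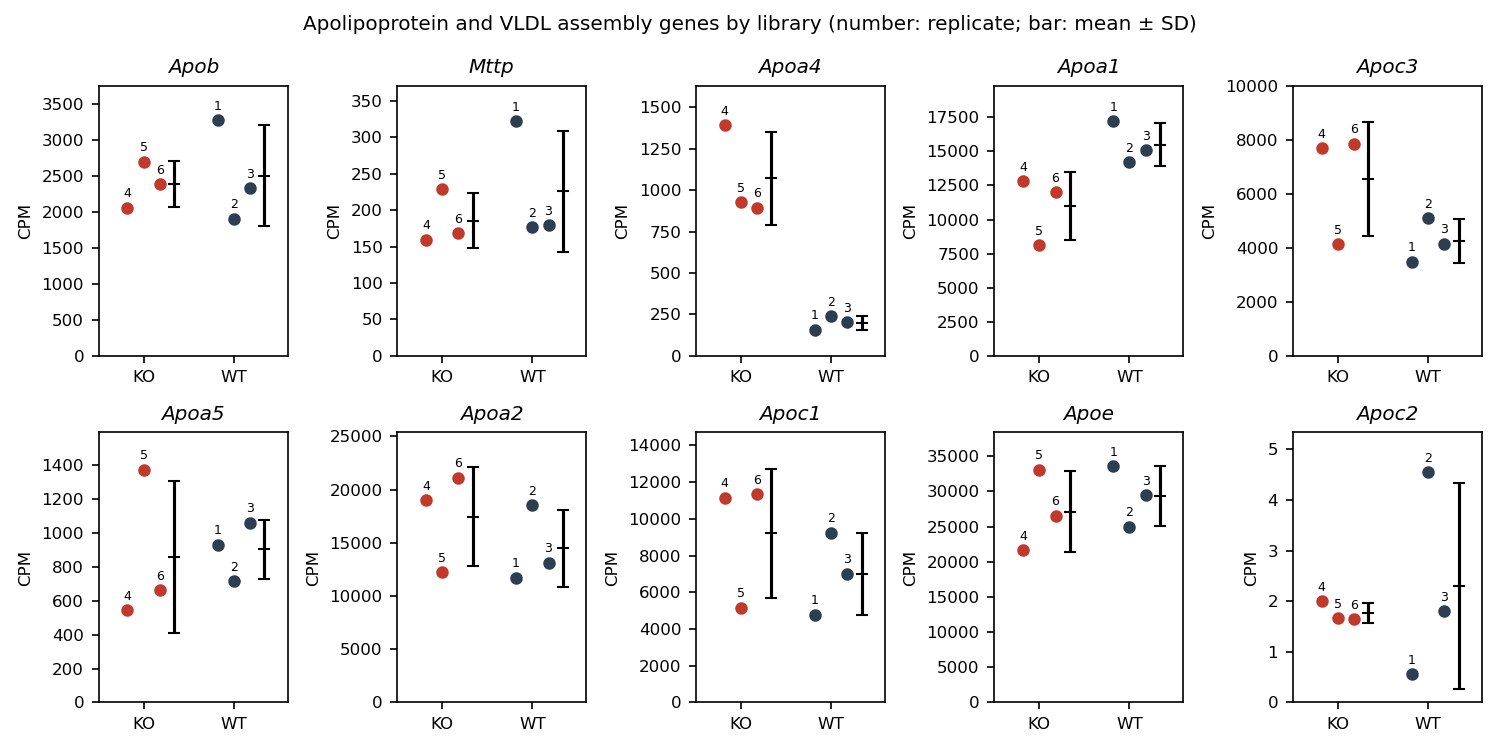
Each panel plots 1 gene in CPM (vertical axis, starting at 0) for the 3 KO-labelled (left, red) and 3 WT-labelled libraries (right, dark), with the replicate number at each point and the mean ± SD as a bar. Apoa4 lies between 893 and 1392 CPM in KO-labelled and between 157 and 241 CPM in WT-labelled libraries, Apoa1 is separated the other way, and the other 8 genes overlap.

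Levels per gene length differed by orders of magnitude between members. On the scale of the authors' FPKM, which divides by gene length and library size, Apoa2, the second protein of high-density lipoprotein, was the highest in both groups at 31944 ± 8732 FPKM in KO-labelled and 27016 ± 6272 FPKM in WT-labelled libraries (SD, n = 3 each, as for all values below). Apoe followed at 12424 ± 2517 and 13838 ± 2343 FPKM in KO-labelled and WT-labelled libraries. Next came Apoc1, at 12179 ± 4738 FPKM in KO-labelled and 9435 ± 2840 FPKM in WT-labelled libraries, and Apoa1, at 8725 ± 2054 and 12626 ± 1588 FPKM in the same order of groups. Within each group the library ranges of Apoe, Apoc1 and Apoa1 overlapped their neighbours, so their order is not fixed by these data. Apoc3 stood at 6370 ± 2094 FPKM in KO-labelled and 4208 ± 726 FPKM in WT-labelled libraries.

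The lower members stood well under these. In KO-labelled liver Apoa4 took the sixth place at 579 ± 154 FPKM, ahead of Apoa5 (333 ± 170 FPKM) and Apob (167 ± 21.0 FPKM), although Apoa4 and Apoa5 overlapped there. In WT-labelled liver the order was Apoa5 (360 ± 70.3 FPKM), Apob (181 ± 55.4 FPKM) and Apoa4 (111 ± 20.9 FPKM). Each pair of neighbours there was separated in every library. Apob and Apoa4 were close, with a lowest Apob value of 135 FPKM and a highest Apoa4 value of 132 FPKM. The level of Apoa4 per length, and so its place, also carries the counting limit of its locus given below. Mttp was ninth at 29.2 ± 5.63 FPKM in KO-labelled and 36.8 ± 14.6 FPKM in WT-labelled libraries. Together the 10 genes took 7.26% to 7.94% of the counts of KO-labelled and 6.61% to 8.46% of those of WT-labelled libraries.

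**Figure D2:**
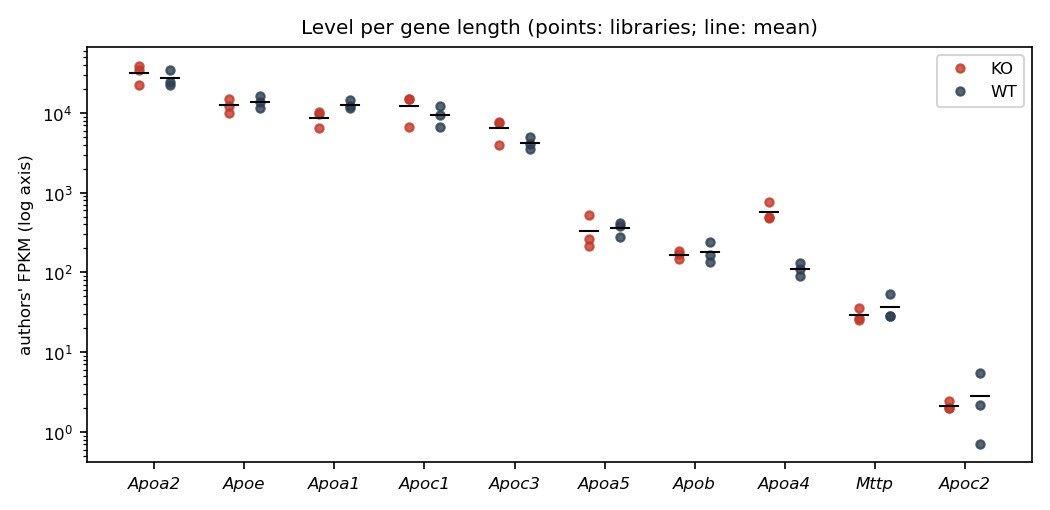
Points are libraries and lines group means of the authors' FPKM on a log axis, with KO-labelled (red) left of WT-labelled (dark) for each gene, and genes ordered by the WT-labelled mean. Apoa4 has a mean of 579 FPKM in KO-labelled and 111 FPKM in WT-labelled liver, where it is the eighth gene.

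The core of the particle showed no detectable difference. Apob (ENSMUSG00000020609, mm10 chromosome 12, 7977648 to 8016835), the frame of VLDL and chylomicrons, had 2059, 2696 and 2380 CPM in KO-labelled replicates 4, 5 and 6, and 3269, 1902 and 2327 CPM in WT-labelled replicates 1, 2 and 3. WT-labelled replicates 1 and 2 were thus its highest and lowest libraries, and the KO-labelled values lay between them. The fitted fold difference was 0.952 (95% interval 0.596 to 1.52), so that a moderate difference in either direction was not detectable. Mttp (ENSMUSG00000028158, chromosome 3, 138089854 to 138144968) had 159, 228 and 168 CPM in KO-labelled and 322, 177 and 179 CPM in WT-labelled libraries. Here WT-labelled replicate 1 was highest and the remaining libraries overlapped, with a fitted fold difference of 0.821 (95% interval 0.503 to 1.34). The signs of both reversed without WT-labelled replicate 1, to log2 fold changes of 0.17 for Apob and 0.06 for Mttp. For Apob the sign also turned without KO-labelled replicate 4 (0.02). With the mitochondrial share in the model both were above 0, at 0.21 for Apob and 0.08 for Mttp.

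Apob and Mttp moved together from library to library. Their count ratio within a library was 12.9, 11.8 and 14.2 in KO-labelled replicates 4, 5 and 6, and 10.2, 10.8 and 13.0 in WT-labelled replicates 1, 2 and 3. The groups overlapped, and the mean log2 ratio differed by 0.20 (two-sided exact permutation test, p = 0.3, adjusted over 4 ratios 0.3; the smallest p this design allows is 0.1).

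Apoa4 lies in a cluster on chromosome 9 that also holds Apoa1, Apoc3 and Apoa5. Its product, apolipoprotein A-IV, is carried on triglyceride-rich particles and high-density lipoprotein and is induced in fatty mouse liver. Apoa4 (ENSMUSG00000032080, chromosome 9, 46240696 to 46243459, plus strand) had 1392, 926 and 893 CPM in KO-labelled replicates 4, 5 and 6, and 157, 241 and 204 CPM in WT-labelled replicates 1, 2 and 3. The lowest KO-labelled library was thus above the highest WT-labelled one, and KO-labelled replicate 4 was above the other 2 of its group. The fitted difference was 5.33-fold (95% interval 3.30 to 8.60; log2 2.41, SE 0.30). It had the fourth smallest p of all 13693 genes (4.56e-05) and an edgeR adjusted p of 0.156, which does not pass 0.05. Counted from the largest increase, its fold change ranked 56 among all tested genes and 2 among the 1216 with a mean of at least 100 CPM.

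The size of the Apoa4 difference was steady and its call was not. Over 20 alternatives its log2 fold change lay between 2.03 and 2.56. It passed 0.05 in DESeq2 (adjusted p = 9.56e-12), edgeR without a low-count filter (adjusted p = 0.0018; 0.158% of genes called higher) and quality-weighted limma-voom (adjusted p = 0.00143), and in none of the other alternatives. With each library left out in turn the edgeR adjusted p ranged from 0.0979 (without WT-labelled replicate 2) to 0.675 (without KO-labelled replicate 4). Without KO-labelled replicate 5, the library with Adipoq, Plin1, Lep and Retn, the log2 fold change was 2.50 (edgeR adjusted p = 0.125), and with the mitochondrial share in the model it was 2.13 (edgeR adjusted p = 0.149). The intestine is the other main source of this protein. Of 10 listed enterocyte markers, Alpi, Sis, Cdx1, Cdx2 and Reg3g had 0 counts in every library, and the summed level of the list was 248 to 316 CPM in KO-labelled and 239 to 292 CPM in WT-labelled libraries, nearly all from Fabp2 and Anpep.

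Counting at the Apoa4 locus carries a limit. In the GENCODE vM21 annotation, 69.8% of its exonic bases are shared with genes on the opposite strand, Gm47528 (34.9%) and Gm10680 (34.8%). The sources used here do not state whether counting used strand, and without strand reads from these genes and Apoa4 cannot be told apart. Gm47528 had 327, 96 and 76 counts in KO-labelled and 21, 127 and 86 counts in WT-labelled libraries, and Gm10680 had at most 1. Apoa4 itself had 13599 to 19992 counts in KO-labelled and 2527 to 4192 counts in WT-labelled libraries. If strand was not used, reads in shared bases may have been given to no gene. The small counts of Gm47528 and Gm10680 then cannot show how much the overlap matters, and the Apoa4 level may be too low.

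No neighbour of Apoa4 showed a fitted difference of its size. Apoa1 (ENSMUSG00000032083, chromosome 9, 46228580 to 46230466), the main protein of high-density lipoprotein, had 12802, 8137 and 11994 CPM in KO-labelled replicates 4, 5 and 6, and 17218, 14187 and 15069 CPM in WT-labelled replicates 1, 2 and 3. All 3 KO-labelled values were below the WT-labelled ones, with replicate 5 lowest. The fitted fold difference was 0.709 (log2 −0.50, 95% interval −1.21 to 0.22, edgeR adjusted p = 0.664), and the log2 fold change kept its sign under all 20 alternatives, between −0.76 and −0.33. Apoc3 (ENSMUSG00000032081, chromosome 9, 46232933 to 46235636), an inhibitor of lipoprotein lipase and of particle uptake, had 7708, 4136 and 7866 CPM in KO-labelled and 3494, 5110 and 4157 CPM in WT-labelled libraries. KO-labelled replicates 4 and 6 were above every WT-labelled library and replicate 5 was not. Its fitted fold difference was 1.54 (95% interval 0.892 to 2.68, edgeR adjusted p = 0.642). That gene passed 0.05 in limma-voom with sample quality weights alone (log2 0.85, adjusted p = 0.0169), and its log2 fold change was 0.11 with the mitochondrial share in the model.

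Apoa5 (ENSMUSG00000032079, chromosome 9, 46268633 to 46271919), which promotes lipolysis of triglyceride-rich particles, spread the most in the KO-labelled group of these neighbours. It had 543, 1373 and 662 CPM in KO-labelled replicates 4, 5 and 6, and 930, 716 and 1060 CPM in WT-labelled replicates 1, 2 and 3. KO-labelled replicate 5 was above and replicates 4 and 6 below every WT-labelled library. The fitted fold difference was 0.953 (95% interval 0.515 to 1.76), and the log2 fold change was −0.59 without KO-labelled replicate 5, 0.17 without KO-labelled replicate 4, 0.08 without KO-labelled replicate 6 and 0.03 without WT-labelled replicate 3. With the mitochondrial share in the model it was 0.43, and in limma-voom with sample quality weights −0.62 (adjusted p = 0.049).

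Ratios within a library do not depend on how libraries are scaled. The 3 given here all have Apoa4 on top, whose own values were already separated between the groups. They therefore restate its difference without scaling and are not separate support for it. Apoa4 had 0.109, 0.114 and 0.0745 counts per Apoa1 count in KO-labelled replicates 4, 5 and 6, and 0.00915, 0.0170 and 0.0135 in WT-labelled replicates 1, 2 and 3, a 7.60-fold difference of the geometric means. Per Apoc3 count it had 0.181, 0.224 and 0.113 in KO-labelled and 0.0451, 0.0472 and 0.0490 in WT-labelled libraries, a 3.53-fold difference. In this ratio the SD on the log2 scale was 0.50 in KO-labelled and 0.06 in WT-labelled libraries. Per Apoa5 count it had 2.56, 0.674 and 1.35 in KO-labelled and 0.169, 0.337 and 0.192 in WT-labelled libraries, a 5.97-fold difference. None of these 3 ratios overlapped between the groups. Two-sided exact permutation gave p = 0.1 for each, the smallest that 3 against 3 libraries allow, or 0.133 adjusted over the 4 ratios.

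**Figure D3:**
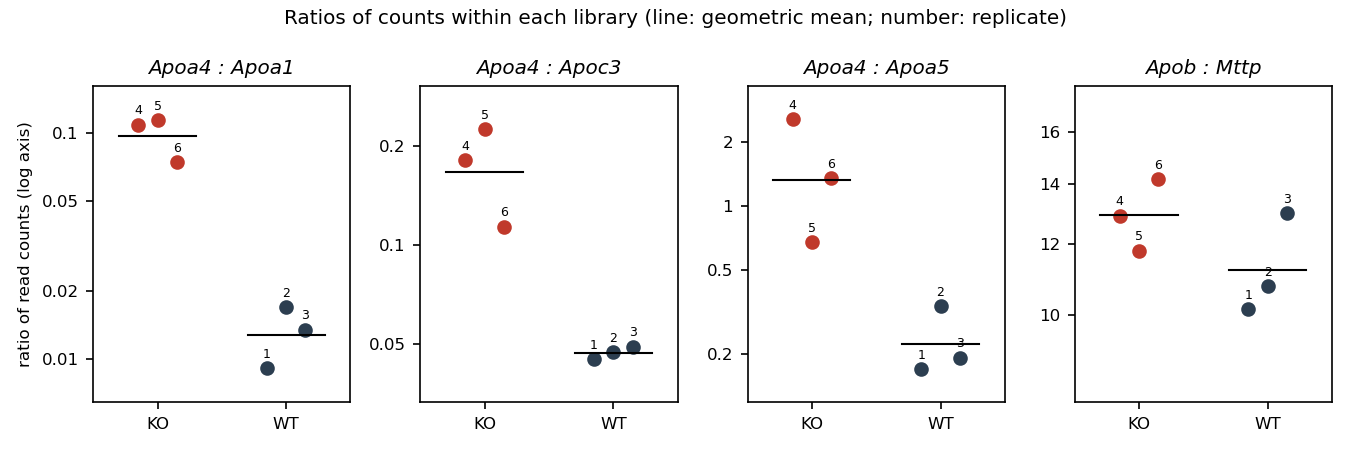
Points are the ratio of read counts of 2 genes within each library on a log axis, with KO-labelled libraries (red) left of WT-labelled ones (dark), replicate numbers at the points and the geometric mean as a line. The 3 ratios with Apoa4 on top are separated between the groups (for Apoa4 to Apoa1, 0.0745 to 0.114 in KO-labelled and 0.00915 to 0.0170 in WT-labelled libraries), and Apob to Mttp overlaps.

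The cluster is compact, with 5059 bases between Apoc3 and Apoa4 and 25173 between Apoa4 and Apoa5 in a span of 43340 bases. Because neighbours this close differed in their library pattern, the promoter windows of the 3 cluster genes held by the RefSeq table (GRCm38.p6, 250 bases before to 50 after the start site, plus strand, 5′ to 3′) are printed here, with any TATAAA in capitals.
Apoa4, chr9:46240594-46240893: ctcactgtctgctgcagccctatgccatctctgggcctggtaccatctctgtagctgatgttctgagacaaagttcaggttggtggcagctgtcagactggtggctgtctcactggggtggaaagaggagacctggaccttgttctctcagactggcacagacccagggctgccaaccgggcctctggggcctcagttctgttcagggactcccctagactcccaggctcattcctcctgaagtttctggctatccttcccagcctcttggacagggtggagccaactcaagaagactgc
Apoa1, chr9:46228380-46228679: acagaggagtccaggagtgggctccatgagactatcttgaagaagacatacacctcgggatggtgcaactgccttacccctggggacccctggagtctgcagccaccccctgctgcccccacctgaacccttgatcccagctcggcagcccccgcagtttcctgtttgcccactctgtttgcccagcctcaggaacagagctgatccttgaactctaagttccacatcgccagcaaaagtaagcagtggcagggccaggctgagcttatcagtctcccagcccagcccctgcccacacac
Apoa5, chr9:46268383-46268682: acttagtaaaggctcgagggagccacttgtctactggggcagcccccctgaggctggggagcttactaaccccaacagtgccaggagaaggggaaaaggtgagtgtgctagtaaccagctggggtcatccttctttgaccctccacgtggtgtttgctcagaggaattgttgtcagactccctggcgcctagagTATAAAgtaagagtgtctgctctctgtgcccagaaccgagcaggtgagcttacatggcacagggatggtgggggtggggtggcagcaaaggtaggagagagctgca
The RefSeq start sites of Apoa4 and Apoa1 lie 148 and 50 bases inside the annotated gene. Exact matches were sought on both strands to TATAAA, the TATA box, and to CAAAGGTCA and CAAAGTCCA, forms of the elements bound by nuclear receptors such as HNF4A. The 3 motifs do not overlap each other in these windows. TATAAA was found in the Apoa5 window alone of these 3, beginning 56 bases before the start site (31 before the other RefSeq start site of that gene), and in 13.6% of all 32851 windows of the table. Neither of the longer motifs was found in the 3 windows, and each occurs in few of all windows (0.478% for CAAAGGTCA and 0.475% for CAAAGTCCA). A match or its lack describes only these letters in these windows.

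The remaining members lie elsewhere. Apoa2 (ENSMUSG00000005681, chromosome 1, 171225054 to 171226379) had 18989, 12258 and 21122 CPM in KO-labelled replicates 4, 5 and 6, and 11727, 18525 and 13139 CPM in WT-labelled replicates 1, 2 and 3. KO-labelled replicates 4 and 6 were highest and WT-labelled replicate 1 lowest, with overlap and a fitted fold difference of 1.21 (95% interval 0.689 to 2.11). Apoc1 (ENSMUSG00000040564, chromosome 7, 19689481 to 19692660), which slows particle uptake and inhibits cholesteryl ester transfer in species that have the transfer protein, had 11155, 5150 and 11335 CPM in KO-labelled and 4777, 9248 and 7010 CPM in WT-labelled libraries. The libraries fell in the same order as for Apoa2, and the fitted fold difference was 1.31 (95% interval 0.681 to 2.54). Both signs reversed with the mitochondrial share in the model, to log2 fold changes of −0.13 for Apoa2 and −0.28 for Apoc1.

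Apoe (ENSMUSG00000002985, chromosome 7, 19696109 to 19699188), the ligand through which liver receptors take up particle remnants, had the most counts of the 10 genes. It stood at 21653, 33114 and 26575 CPM in KO-labelled replicates 4, 5 and 6, and at 33608, 24998 and 29457 CPM in WT-labelled replicates 1, 2 and 3. The groups overlapped, with a fitted fold difference of 0.924 (95% interval 0.548 to 1.56). The log2 fold change was −0.11, 0.02 without KO-labelled replicate 4 and 0.17 with the mitochondrial share in the model. Macrophages also make apolipoprotein E, and markers of Kupffer cells and macrophages were fitted higher for all 11 tested of 12 listed, with a summed level of 247 to 306 CPM in KO-labelled and 142 to 191 CPM in WT-labelled libraries. Their part in the Apoe level was not tested. In whole tissue, more cells of a type and more RNA per cell cannot be told apart.

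Apoc2 (ENSMUSG00000002992, chromosome 7, 19671579 to 19677941), the activator of lipoprotein lipase, was nearly absent from the counts. It had 22, 36 and 25 counts in KO-labelled replicates 4, 5 and 6, and 9, 71 and 37 counts in WT-labelled replicates 1, 2 and 3, or 2.14 ± 0.250 and 2.82 ± 2.47 FPKM. WT-labelled replicates 1 and 2 were the lowest and highest of the 6. In the annotation, 79.5% of its exonic bases are shared on the same strand with Gm44805, a gene that spans both Apoc2 and Apoc4, whereas 4.69% of the exonic bases of the adjacent Apoc4 are. Gm44805 itself had 1 count over all 6 libraries, while Apoc4 had 23865 to 41230 counts in KO-labelled and 14867 to 28468 counts in WT-labelled libraries. Reads in shared bases cannot be given to a single gene, so the Apoc2 level is uncertain as counted here. Its fitted fold difference was 0.769 (95% interval 0.263 to 2.25), and its log2 fold change was 0.55 without WT-labelled replicate 2.

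**Figure D4:**
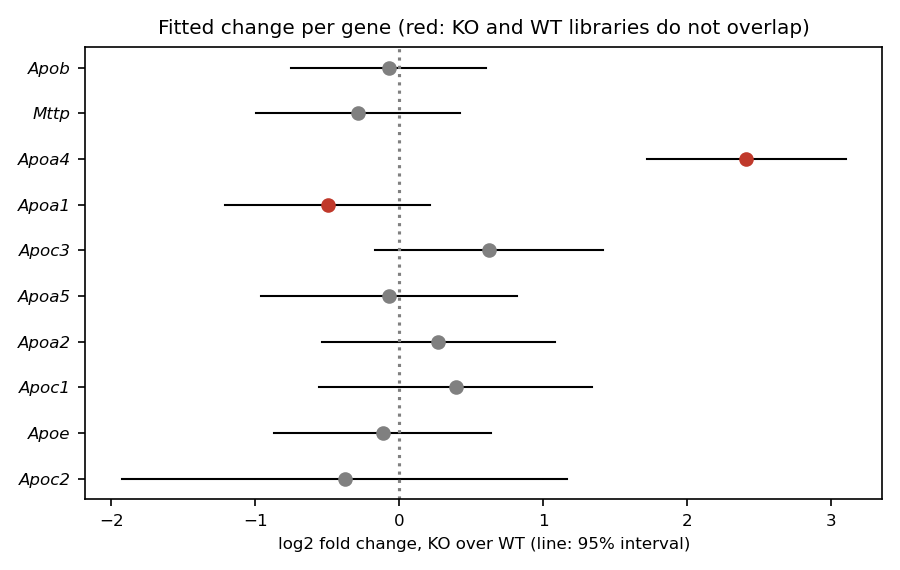
Points give the fitted log2 ratio of KO-labelled to WT-labelled libraries and lines their 95% intervals, with red points for genes whose libraries do not overlap between the groups. The Apoa4 interval, 1.72 to 3.10, is the only one of the 10 that leaves out 0.

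The members Apoa2, Apoc1 and Apoc3 and the members Apob, Apoe and Mttp formed 2 sets whose pattern crossed the labels. This was noticed in the values and is a description. Likeness was measured as the root mean square difference of log2 CPM centred on the mean of the 6 libraries. By this measure Apob was closest to Apoe (0.13) and Mttp (0.17), and Apoc3 was closest to Apoc1 (0.18) and Apoa2 (0.19), against a median of 0.67 over the 45 pairs of members. Apoa4 was at least 0.96 from every other member. Set in order of the mitochondrial share of the counts, from WT-labelled replicate 1 through KO-labelled replicate 5, WT-labelled replicates 3 and 2 and KO-labelled replicate 6 to KO-labelled replicate 4, the mean centred log2 CPM of Apoa2, Apoc1 and Apoc3 minus that of Apob, Apoe and Mttp was −1.02, −0.61, −0.19, 0.39, 0.65 and 0.77. The difference thus ordered the 6 libraries as their mitochondrial share does, and KO-labelled replicate 5 stood among the WT-labelled libraries. Without that replicate the groups did not overlap for 7 members (Apoa2, Apoa4, Apoc1 and Apoc3 higher; Apoa1, Apoa5 and Mttp lower), where 40.2% of all tested genes did not overlap either.

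**Figure D5:**
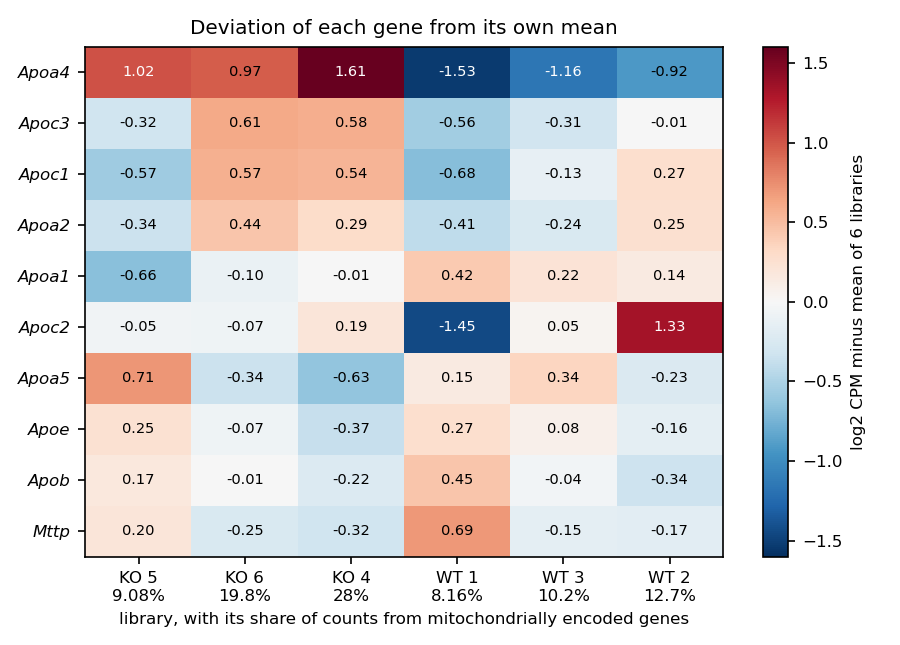
Each cell gives log2 CPM minus the gene's mean over 6 libraries, with KO-labelled libraries left of WT-labelled ones and each group ordered by its mitochondrial share of counts. Apoa4 is above its mean in all 3 KO-labelled libraries (0.97 to 1.61) and below it in all 3 WT-labelled ones, while Apoc3, Apoc1 and Apoa2 are below their means in KO-labelled replicate 5 and above them in replicates 4 and 6.

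Genes with a library pattern most like that of Apoa4 were sought among 7041 protein-coding genes with a mean of at least 10 CPM. The 5 closest were Ifi27l2b, Wfdc2, Cidec, Anxa2 and Ifi27l2a, at root mean square differences of 0.35 to 0.44, against a median of 1.29 for all genes compared. Cidec, which enlarges lipid droplets, had 93.3 ± 23.1 CPM in KO-labelled and 14.2 ± 8.41 CPM in WT-labelled libraries. Anxa2, a phospholipid-binding annexin, had 38.7, 47.3 and 31.4 CPM in KO-labelled and 8.10, 9.80 and 13.8 CPM in WT-labelled libraries. In both genes every KO-labelled library was above every WT-labelled one. Wfdc2, a secreted protein with a whey acidic protein domain, and the interferon-inducible Ifi27l2a and Ifi27l2b had log2 fold changes of 1.93, 1.70 and 1.91. None of the 5 passed 0.05 in edgeR (adjusted p from 0.236 to 0.298). Like Apoa4, all 5 passed it in DESeq2 (adjusted p from 3.64e-07 for Cidec to 0.000432 for Wfdc2), in edgeR without a low-count filter and with sample quality weights. With the mitochondrial share in the model, the log2 fold change of Ifi27l2b was 1.32, and without WT-labelled replicate 2 that of Cidec was 3.31. A gene chosen for likeness to Apoa4 had to differ the same way.

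Around these genes, no member of 6 lists of lipoprotein biology passed an edgeR adjusted p of 0.05. Of the 81 genes tested, DESeq2 called 0 and limma-voom with sample quality weights 23, beside the 15.1% and 14.6% of all genes that it called higher and lower. Of all 13693 tested genes, 8.58% had an unadjusted edgeR p under 0.05 and 13.9% did not overlap between the groups. Fitted changes were above 0 for 6730 of all tested genes and below 0 for 6963. The counts of each list stand beside these shares and are not read as results about the lists. Of the 12 tested of 16 other apolipoproteins, 11 were fitted lower (median log2 fold change −0.29; −0.03 without WT-labelled replicate 1 and −0.56 without KO-labelled replicate 5), and 1 had an unadjusted p under 0.05, Apoh. Apoh, or beta-2-glycoprotein I, a phospholipid-binding plasma protein, stood at 1195 ± 249 CPM in KO-labelled and 1966 ± 409 CPM in WT-labelled libraries without overlap (log2 −0.72, SE 0.28, edgeR adjusted p = 0.541). Apom, the sphingosine-1-phosphate carrier of high-density lipoprotein, stood at 25.3 ± 17.1 and 61.0 ± 37.4 CPM in the same order (log2 −1.26, SE 0.63). Its log2 fold change was −0.29 with the mitochondrial share in the model, −1.97 without KO-labelled replicate 5 and −0.51 without KO-labelled replicate 4 and WT-labelled replicate 1 together. Apoc4, the neighbour of Apoc2, was the 1 fitted higher, at 2180 ± 931 CPM in KO-labelled and 1307 ± 463 CPM in WT-labelled libraries (log2 0.74, SE 0.42; −0.04 with the mitochondrial share in the model).

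For the machinery that lipidates and exports apolipoprotein B, fitted log2 fold changes lay between −0.63 and 0.41. Cideb, named outside the rule for its spread, stood at −0.61 (SE 0.97) and ran from 3.54 to 60.4 CPM over the libraries. A large difference in either direction was not detectable for that gene. All 19 listed genes were tested, 5 fitted higher and 14 lower (median −0.12; 0.00 without WT-labelled replicate 1 and 0.16 with the mitochondrial share in the model), and 0 had an unadjusted edgeR p under 0.05. The extremes were Tm6sf2, which supports lipidation of VLDL (log2 0.41, SE 0.25; −0.02 in limma-voom with sample quality weights), and Sort1, a sorting receptor that binds apolipoprotein B (log2 −0.63, SE 0.28). Sort1 was low, at 5.02 ± 1.05 CPM in KO-labelled and 7.77 ± 1.47 CPM in WT-labelled libraries without overlap. Lpcat3, which makes the polyunsaturated phospholipids of the particle surface, stood at 103 ± 16.8 and 85.3 ± 11.6 CPM. P4hb, the small subunit of the transfer protein, named outside the rule for its role, stood at log2 0.10 (SE 0.26).

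All 5 genes of Apob mRNA editing, which in mouse liver makes the short apolipoprotein B-48 beside B-100, were fitted lower (median −0.41, beside −0.01 for all tested genes). Khsrp, an RNA-binding protein, stood at 14.7 ± 6.53 CPM in KO-labelled and 30.7 ± 4.23 CPM in WT-labelled libraries without overlap (log2 −1.06, SE 0.33, edgeR adjusted p = 0.437) and had the 1 unadjusted p under 0.05 of this list. Rbm47, a cofactor of editing, had 56.6 ± 9.70 and 75.2 ± 3.41 CPM, also without overlap (log2 −0.41, SE 0.20). In this list 3 of the 5 genes were lower without overlap, beside 5.73% of all tested genes. They include A1cf, whose fitted difference was small (log2 −0.11, SE 0.17). Such genes numbered 1 in each of the lists of other apolipoproteins, lipidation, remodelling and receptors, and 0 among the regulators. The lists were chosen with earlier results of these data known, so the 3 are a description. Apobec1, the editing enzyme, had 11.5 ± 3.48 and 17.4 ± 8.58 CPM (log2 −0.60, SE 0.38). The deposited tables give gene counts, so the edited share of Apob was not measured.

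In plasma remodelling, 7 of 12 genes were fitted higher and 5 lower (median 0.13), and 1 had an unadjusted p under 0.05. That gene was Abca1, which lipidates apolipoprotein A-I, at 68.4 ± 6.53 CPM in KO-labelled and 116 ± 17.1 CPM in WT-labelled libraries without overlap (log2 −0.76, SE 0.20, edgeR adjusted p = 0.40). Gpihbp1, the endothelial anchor of lipoprotein lipase, had 17.9 ± 4.96 CPM in KO-labelled and 11.3 ± 2.75 CPM in WT-labelled libraries (log2 0.66, SE 0.29). All 6 listed markers of sinusoidal endothelium were fitted higher too, with a summed level of 168 to 229 CPM in KO-labelled and 113 to 145 CPM in WT-labelled libraries, and their part in its level was not tested. Lpl itself had 19.6 ± 2.80 and 12.3 ± 7.57 CPM (log2 0.67, SE 0.42), a gene that fat cells also express. Its log2 fold change was −0.01 in limma-voom with sample quality weights. Of 9 tested receptors and their partners out of 11 listed, 3 were fitted higher and 6 lower (median −0.02), and Lrp1, a remnant receptor, had the 1 unadjusted p under 0.05 at 345 ± 71.3 CPM in KO-labelled and 581 ± 72.9 CPM in WT-labelled libraries without overlap (log2 −0.75, SE 0.24, edgeR adjusted p = 0.46). Vldlr, the VLDL receptor, was scarce at 2.39 ± 0.735 CPM in KO-labelled and 1.21 ± 0.564 CPM in WT-labelled libraries without overlap (log2 0.98, SE 0.49).

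Among 24 transcription regulators of apolipoprotein genes, 5 were fitted higher and 19 lower (median −0.15). At an unadjusted edgeR p under 0.05 stood 1 of them, beside 8.58% of all tested genes. Foxa1, a pioneer factor of hepatocyte genes, stood at 13.0 ± 3.79 CPM in KO-labelled and 22.6 ± 4.98 CPM in WT-labelled libraries (log2 −0.79, SE 0.28, edgeR adjusted p = 0.516). Nr5a2 and Rora, nuclear receptors of lipid metabolism, had log2 fold changes of −0.57 (SE 0.25) and −0.33 (SE 0.20). Creb3l3 and Ppara, which activate Apoa4 and other genes of triglyceride handling in mouse liver, and Hnf4a, which acts on most of the cluster, were named outside the rule for these roles. Their log2 fold changes were −0.14 (SE 0.25), −0.00 (SE 0.18) and −0.06 (SE 0.23). Their part in the Apoa4 difference was not tested, and RNA does not report the activity of a factor.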

How the data were processed

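Liver RNA of 6 libraries was sequenced. Per the labels' protocols it was extracted with Trizol and made into libraries with an Illumina TruSeq kit from 1 ug of total RNA. The authors deposited whole read counts per gene and FPKM values, both used here; per the submitters' processing notes, the genome build was mm10 and the tools included DESeq2 1.16.1, featureCounts 1.5.0-p3 and HISAT2 2.0.5, with no roles given. The library sizes implied by the deposited FPKM and counts were 0.846 to 1.14 times the count totals. Library pairs differed far beyond sampling noise (lowest chi-square per degree of freedom 46.9).

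Counts were fitted with edgeR 4.0.16 (R 4.3.3) over 13693 genes kept by filterByExpr, using TMM scaling, quasi-likelihood F tests and a threshold of 0.05 on Benjamini-Hochberg adjusted p. Dividing a log2 fold change by the square root of its F gave the SE, and intervals are 95% t intervals. The biological coefficient of variation was 34.7%. Libraries of 11591021 to 20399361 counts leave counting error small except for genes with few counts such as Apoc2, Vldlr and Trem2. Alternatives used DESeq2 1.42.0 and limma 3.58.1 (voom, or log2 FPKM plus 1 or 0.1), other scalings and filters, libraries left out, and, added after seeing the data, a gene-length offset and the mitochondrial share as a covariate. Members and lists were chosen with earlier results of these data known. From each list the text names called genes (up to 4) or else the 3 with the smallest p, and 5 genes most like Apoa4 (log2 CPM, prior count 2). The result of 1 gene that this rule names is not reported here. Sequences are from RefSeq (GRCm38.p6), which held windows for 8 of 10 members.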

Additional observations from a re-analysis of the deposited data

How the results depend on the processing

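No paired analysis was possible because no replicate number is shared between the groups. The count of members called was 0 in the main edgeR test and 1 in DESeq2, 1 in edgeR without a low-count filter, 3 in quality-weighted limma-voom, and 0 in each of the 6 fits with a library left out. The count of all genes called was 2, and became 1 with library size alone, with 10 counts required in every library, in limma-voom and with the mitochondrial share as a covariate, 61 without a low-count filter, 165 in DESeq2, 4063 with sample quality weights, 0 without KO replicate 4 and WT replicate 1 together, and 0 to 1 with a library left out. Members at an unadjusted p under 0.05 numbered 1, or 5 with sample quality weights and 1 to 2 with a library left out. At that p stood 8.58% of all genes in the main edgeR test, and the share in the other fits is not given. With sample quality weights, 15.1% of all genes were called higher and 14.6% lower at an adjusted p under 0.05. The 5 are therefore not read as a result about the members. Members without overlap numbered 2, or 4 (with 29.2% of all genes) without KO replicate 4 and WT replicate 1, and 2 to 7 with a library left out. The cause of these differences was not tested.

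Apoa4, Apoa1 and Apoc3 kept their sign under all 20 alternatives, with Apoc3 between 0.11 and 0.87. With the mitochondrial share as a covariate the log2 fold change was −0.13 for Apoa2, −0.28 for Apoc1, −0.037 for Apoc4, 0.43 for Apoa5, 0.21 for Apob, 0.17 for Apoe and 0.081 for Mttp. Without KO replicate 4 and WT replicate 1 it was 0.20 for Apoa5, 0.26 for Apob, 0.13 for Apoe, 0.16 for Mttp and 0.052 for Apobec1. Apoc2 stood at 0.059 in limma-voom and 0.022 with FPKM plus 0.1, and could not be fitted with 10 counts required in every library. With sample quality weights Tm6sf2 stood at −0.015 and Lpl at −0.0054. With a library left out the range was −0.59 to 0.17 for Apoa5, −0.24 to 0.17 for Apob, −0.84 to 0.55 for Apoc2, −0.29 to 0.023 for Apoe and −0.47 to 0.058 for Mttp.

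The median of the Apob editing list was −0.076 with sample quality weights and −0.14 without KO replicate 4 and WT replicate 1. That of plasma remodelling was −0.0070 with sample quality weights and −0.081 with the mitochondrial share, and that of receptors −0.25 with sample quality weights. The median of other apolipoproteins was 0.031 and that of lipidation 0.13 without KO replicate 4 and WT replicate 1, and that of receptors 0.11 with the mitochondrial share. With a library left out the other apolipoproteins ranged from −0.56 to −0.030, lipidation from −0.27 to 0.0050, remodelling from 0.00079 to 0.091, regulators from −0.23 to −0.13, the editing list from −0.53 to −0.12 and the receptors from −0.30 to −0.019. For the ratios of Apoa4 to Apoa1, Apoc3 and Apoa5, the mean log2 ratio of KO-labelled minus that of WT-labelled libraries was taken with a library left out. This difference ranged from 2.68 to 3.13, 1.61 to 2.09 and 2.10 to 3.07. The order of members per length was the same in TPM. Few counts limit Apoc2 among the members, where bases shared with Gm44805 limit the count as well. Depth limits scarce listed genes such as Vldlr.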
